A study of Mus musculus with 16 samples.

Results

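Active zone scaffolds are the proteins that hold synaptic vesicles, their fusion machinery and calcium channels together at the presynaptic release site, and the RNA of 10 such genes is described here. The genes are Bsn, Pclo, Rims1, Rims2, Rimbp2, Unc13a, Unc13b, Erc1, Erc2 and Ppfia3. They were picked by symbol from 48709 genes in a table of counts per gene, and all 10 were found once and passed the filter on low counts. RNA was measured in cortical synaptosomes (SYN) of C57BL/6 mice at 3 weeks, 5 months and 19 months, with 4 biological replicates per age, and in total homogenate (TH) of cortex at 5 months, also with 4 replicates. Synaptosomes are nerve endings that break off and reseal when brain tissue is homogenised, usually with a piece of the postsynaptic membrane. The homogenate was set aside before the synaptosomes were enriched. No group carried a transgene or a drug treatment in the labels, and the sex of the mice and any pooling of animals were not given. Splicing tables that the authors made by comparing ages cover the synaptosomes alone. The libraries were made with a stranded total RNA kit that depletes 18S and 28S rRNA, so both spliced and unspliced RNA can be counted.

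In vertebrate terminals, Bassoon (Bsn) and Piccolo (Pclo) are giant cytomatrix proteins that cluster vesicles and guide active zone assembly. The RIM proteins (Rims1, Rims2) bind Rab3 on vesicles and, together with RIM-binding protein (Rimbp2), tether calcium channels, while Munc13 proteins (Unc13a, Unc13b) prime vesicles for fusion. ELKS proteins (Erc1, Erc2) and liprin-alpha-3 (Ppfia3) are further scaffolds that bind RIM and organise the site.

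Total counts per library ran from 10640232 to 21719869, and the 10 genes held between 54651 and 102525 counts in each. The lowest single count was 385, for Unc13b in a 19 months SYN library. Of the counts outside the mitochondrial genome, the 10 genes took 0.939% ± 0.0425 at 3 weeks, 1.07% ± 0.0588 at 5 months and 0.932% ± 0.0668 at 19 months in synaptosomes, against 0.571% ± 0.0277 in TH at 5 months (SD over 4 libraries per group). The mitochondrial rRNA share of all counts lay between 32.9% and 52.3% in SYN libraries and between 17.6% and 22% in TH libraries. Replicate 4 of 5 months SYN stood apart by its nuclear RNA, with a Malat1 level of 4817 CPM (counts scaled to library size, with TMM factors) against at most 1458 CPM in the other 3 libraries of its group. Replicate 1 of 19 months SYN stood apart by its mitochondrial rRNA share of 52.3%, against 32.9% to 33.6% in the others. For the genes described here a further library, replicate 1 of 3 weeks SYN, lay above its group for Rims1, Rims2, Erc1, Erc2 and Ppfia3.

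Markers of other cells were present in every group, with 0 genes of any marker list at 0 in a whole group. At 5 months, the summed level of 12 astrocyte markers was 8592 to 9869 CPM in SYN and 3785 to 4462 CPM in TH, and that of 12 microglial markers was 237 to 283 CPM in SYN and 112 to 121 CPM in TH. The 8 markers of excitatory cortical neurons summed to 5073 to 6286 CPM in SYN and 1896 to 2337 CPM in TH. Of these, 11 of 12, 12 of 12 and 4 of 8 were called higher in SYN. The 12 endothelial and mural markers summed to 43.4 to 71.3 CPM in SYN, against 178 to 256 CPM in TH, and 10 nuclear noncoding RNAs to 1658 to 6987 CPM in SYN, against 21060 to 25060 CPM in TH, with 10 of 12 and 9 of 9 tested called lower. At 5 months, 10 myelin markers summed to 2365 to 2928 CPM in SYN and 1582 to 1766 CPM in TH, with 6 of 10 called higher in SYN, and 8 inhibitory neuron markers to 321 to 410 CPM in SYN and 295 to 392 CPM in TH, with 3 called higher and 2 lower. Between ages, the myelin markers summed to 7449 to 10540 CPM at 3 weeks, 2365 to 2928 CPM at 5 months and 2344 to 3288 CPM at 19 months in SYN. The myelin markers called lower were 9 of 10 at both older ages against 3 weeks. Microglial markers summed to 169 to 250 CPM at 3 weeks, 237 to 283 CPM at 5 months and 297 to 455 CPM at 19 months, and excitatory neuron markers to 4999 to 5601, 5073 to 6286 and 4583 to 5512 CPM at the same ages. Of the 8 excitatory neuron markers, 3 were called lower and 1 higher at 5 months against 3 weeks, and 5 lower at 19 months against 3 weeks. The nuclear noncoding RNAs summed to 905 to 1223 CPM at 3 weeks, 1658 to 6987 CPM at 5 months and 1731 to 2643 CPM at 19 months, and 6 of 9 tested were called higher at 5 months against 3 weeks and 1 of 9 at 19 months against 3 weeks. The part of these cells and of nuclear RNA in the results on the scaffold genes was not tested. In bulk RNA of this kind, fewer endings of a type and less RNA per ending cannot be told apart.

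The main alternative segments of the scaffold genes that changed between ages are shown first, since the splicing results below turn on them. Segments of the other Rims1 and Rims2 clusters described below are not shown. The sequences are those of GENCODE vM21 transcripts on GRCm38, 5′ to 3′ on the strand of the gene, with the alternative exon in capitals and 15 bases of the neighbouring exons in lower case. Each of these exons is part of at least 1 annotated protein-coding transcript and has a length that is a multiple of 3. The ELKS gene Erc1 has an exon of 132 bases, found in 7 of its 13 annotated transcripts, at chr6:119713680-119713811 on the minus strand. The Munc13-1 gene Unc13a has an exon of 57 bases in 1 of 8 transcripts, at chr8:71633439-71633495 on the minus strand. Rims2 has an exon of 78 bases in 2 of 12 transcripts, at chr15:39610064-39610141 on the plus strand, and near its start a pair of exons of 33 and 87 bases in 1 transcript, at chr15:39274976-39275008 and chr15:39275414-39275500.
Erc1, exon of 132 bases: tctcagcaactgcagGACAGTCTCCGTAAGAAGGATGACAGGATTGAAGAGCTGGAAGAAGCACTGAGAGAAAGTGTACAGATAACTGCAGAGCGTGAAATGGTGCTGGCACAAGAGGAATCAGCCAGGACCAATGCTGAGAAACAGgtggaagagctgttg
Unc13a, exon of 57 bases: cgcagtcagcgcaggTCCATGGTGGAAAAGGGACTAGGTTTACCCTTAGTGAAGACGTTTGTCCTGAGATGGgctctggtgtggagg
Rims2, exon of 78 bases: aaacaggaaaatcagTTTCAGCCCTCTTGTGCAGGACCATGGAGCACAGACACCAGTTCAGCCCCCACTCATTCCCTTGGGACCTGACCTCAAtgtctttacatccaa
Rims2, first exon of the pair, 33 bases: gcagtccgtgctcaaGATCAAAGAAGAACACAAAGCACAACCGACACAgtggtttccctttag
Rims2, second exon of the pair, 87 bases: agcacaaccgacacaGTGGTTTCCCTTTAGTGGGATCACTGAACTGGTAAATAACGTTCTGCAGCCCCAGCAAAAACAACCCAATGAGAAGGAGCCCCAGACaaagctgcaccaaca
The 2 Rims2 pair lines overlap by design, as each exon is the other's neighbour. For the main Rims1 cluster and for Erc2 the segments that changed match no exon of vM21. The annotated junction that spans them is shown in their place, with 30 bases of the upstream exon in lower case and 30 bases of the downstream exon in capitals. It is called the skipping junction here, and whether these segments are internal exons was not tested. The Rims1 junction removes the intron chr1:22379541-22397450 (minus strand), which 6 of 9 annotated transcripts use. The Erc2 junction removes the intron chr14:28317315-28475602 (plus strand), which 2 of 14 transcripts use.
Rims1, skipping junction: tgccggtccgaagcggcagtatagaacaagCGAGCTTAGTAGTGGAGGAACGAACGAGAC
Erc2, skipping junction: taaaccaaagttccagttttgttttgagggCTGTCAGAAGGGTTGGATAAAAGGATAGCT

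Synaptosomes were first compared with homogenate at 5 months, to ask which scaffold RNAs are enriched in the terminal fraction. Of the 10 genes, 8 were higher in SYN, 1 was lower and 1 did not pass the test (edgeR quasi-likelihood test, Benjamini-Hochberg adjusted p under 0.05). Among all 17374 genes tested, 24.5% were called higher and 25.6% lower. The median log2 fold change of the 10 genes was 0.59, beside -0.05 over all genes tested. SYN and TH libraries did not overlap for 9 of the 10 genes, 8 of them with SYN above TH and 1 below, beside 22.2% of all genes above and 25.7% below.

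The cytomatrix pair had the highest CPM of the scaffolds, without scaling to gene length. Bsn had 2324, 2707, 2657 and 2109 CPM in the 5 months SYN libraries, against 593, 594, 571 and 514 CPM in the TH libraries. Every SYN library was thus more than 3 times above every TH library, and the fold change was 4.34 (log2 2.12, SE 0.0915, edgeR adjusted p = 5.06e-10). By fold change Bsn ranked 76 of 17374 genes. Pclo had 2500, 2492, 2445 and 2009 CPM in SYN and 1039, 1035, 939 and 902 CPM in TH. Its libraries were also separated, with a smaller rise of 2.43-fold (log2 1.28, SE 0.0859, edgeR adjusted p = 1.99e-08). For both genes the lowest SYN value was that of replicate 4, the library high in Malat1.

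The RIM genes differed in how far they stood above homogenate. Rims1 had 832, 721, 701 and 652 CPM in SYN and 320, 281, 272 and 269 CPM in TH, a 2.56-fold rise (log2 1.36, SE 0.0876, edgeR adjusted p = 1.36e-08). Rims2 had 272, 247, 258 and 226 CPM in SYN and 153, 160, 157 and 159 CPM in TH, a 1.61-fold rise (log2 0.69, SE 0.0726, edgeR adjusted p = 2.03e-06). Neither RIM gene overlapped between the fractions. Rimbp2 had 167, 141, 174 and 152 CPM in SYN and 127, 118, 104 and 103 CPM in TH, with no overlap between fractions. Its fold change was 1.41 (log2 0.50, SE 0.0900, edgeR adjusted p = 0.000324).

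The Munc13 genes moved in opposite directions. Unc13a, which codes for the main priming factor of cortical excitatory terminals, had 289, 269, 301 and 270 CPM in SYN and 257, 262, 239 and 215 CPM in TH. This was the smallest called rise of the group, at 1.17-fold (log2 0.23, SE 0.0806, edgeR adjusted p = 0.0296). Its call did not hold under DESeq2 size factors (adjusted p = 0.0981), upper-quartile scaling (adjusted p = 0.383) or the DESeq2 Wald test (adjusted p = 0.109), nor without SYN replicate 1 (0.0597) or 3 (0.0894) or TH replicate 3 (0.0740) or 4 (0.0782). Unc13b had 43.1, 42.6, 41.8 and 59.2 CPM in SYN and 69.4, 66.1, 67.8 and 75.0 CPM in TH. All SYN values were below all TH values. It was the one scaffold called lower in SYN, at 0.678 of the TH level (log2 -0.56, SE 0.110, edgeR adjusted p = 0.000631), and its highest SYN value came from replicate 4.

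Of the ELKS genes, Erc1 was higher in SYN, with 123, 112, 110 and 118 CPM against 89.9, 89.2, 78.4 and 81.8 CPM in the TH libraries. The fractions did not overlap (1.38-fold, log2 0.46 with an SE of 0.0760, edgeR adjusted p = 0.000144). Erc2, the ELKS gene with the higher counts, had 204, 176, 202 and 177 CPM in SYN and 215, 220, 200 and 183 CPM in TH. These values overlapped, and the log2 fold change of -0.10 (SE 0.0833) did not pass the test (edgeR adjusted p = 0.353). Under upper-quartile scaling Erc2 was called lower (log2 -0.24, edgeR adjusted p = 0.0212). Ppfia3, coding for liprin-alpha-3, had 271, 243, 281 and 241 CPM in SYN and 120, 120, 95.4 and 86.8 CPM in TH, a 2.47-fold rise with no overlap (log2 1.304, SE 0.108, edgeR adjusted p = 2.20e-07).

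**Figure D1:**
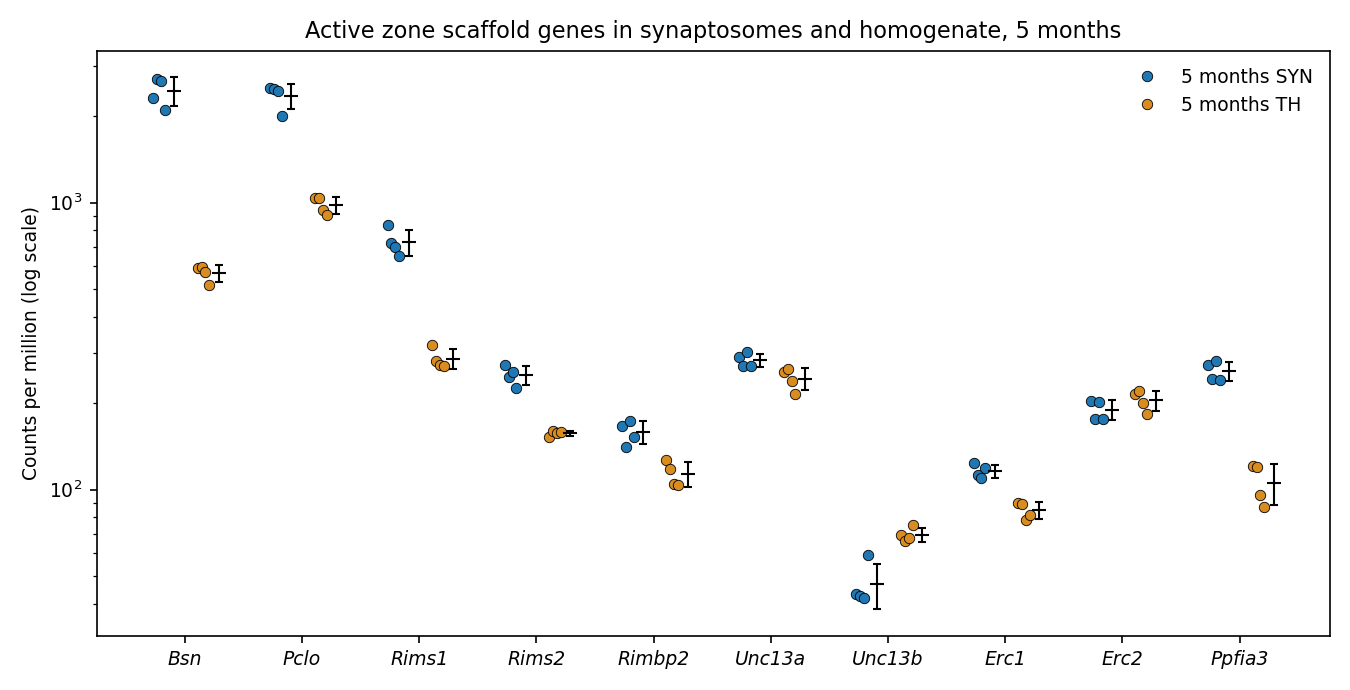
CPM (log axis) of the 10 genes in 5 months SYN (blue) and 5 months TH (orange) libraries, with 4 points per group and mean ± SD in black. SYN lies above TH for 8 genes, below it for Unc13b, and overlaps it for Erc2.

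Levels of different genes were compared per kilobase of the gene length given with the counts. In 5 months SYN the order was Bsn at 154 ± 17.8 CPM per kilobase, Pclo at 105 ± 10.5, Rims1 at 103 ± 10.8, Rims2 at 49.7 ± 3.86, Ppfia3 at 32.8 ± 2.57, Unc13a at 22.4 ± 1.23, Rimbp2 at 19.97 ± 1.84, Erc2 at 19.5 ± 1.58, Erc1 at 7.13 ± 0.375 and Unc13b at 2.05 ± 0.367 (SD, n = 4). The libraries of neighbours in this order overlapped for Pclo and Rims1, Unc13a and Rimbp2, and Rimbp2 and Erc2, and were separate for the other neighbours. In TH the order began with Pclo at 43.6 ± 3.07, Rims1 at 40.3 ± 3.31 and Bsn at 35.6 ± 2.35 CPM per kilobase, with Pclo and Rims1 overlapping and Bsn below both. Bsn therefore led the scaffolds in SYN and was below the means of Pclo and Rims1 in TH. At 3 weeks Bsn (127 ± 4.83) and Rims1 (118 ± 29.1) overlapped above Pclo (77.5 ± 1.31), and at 19 months Bsn (137 ± 16) stood above Pclo (82.0 ± 10.4) and Rims1 (81.7 ± 1.90), which overlapped. Among 17828 genes ranked per kilobase, with the most abundant first, Bsn was number 172 in 5 months SYN and number 541 in TH, while Unc13b was number 9125 in SYN and number 7847 in TH. The length used for Rims2, 5046 bases, is shorter than the 10389 bases of its exons in vM21, so its level per kilobase depends on that choice. The length of Rims1, 7080 bases, compares with 7362 bases in vM21, that of Erc2, 9700 bases, with 9728, and the other 7 lengths are identical.

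Comparisons of the 3 ages used the 12 SYN libraries in a shared fit, so each pair of comparisons has libraries in common. At 5 months against 3 weeks, 2 scaffolds rose, 1 fell and 7 did not pass the test, beside 13.3% of all 15344 genes tested called higher and 11.3% called lower. At 19 months against 3 weeks 0 rose and 3 fell, beside 10.0% higher and 9.44% lower over all genes. The median log2 fold change of the 10 genes was 0.12 at 5 months against 3 weeks and -0.11 at 19 months against 3 weeks, with a median of 0.00 over all genes in both. At 19 months against 3 weeks, 4 scaffolds had an unadjusted p under 0.05, all of them lower at 19 months, beside 15.3% of all genes lower at that level. DESeq2 called 0 higher, beside 9.53% of 17182 genes with an adjusted p, and 4 lower, beside 8.50%.

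Pclo had 1737, 1722, 1784 and 1722 CPM at 3 weeks, 2500, 2492, 2445 and 2009 CPM at 5 months, and 1518, 1872, 1901 and 2075 CPM at 19 months. It was higher at 5 months than at 3 weeks with no overlap (log2 0.46, SE 0.0982, edgeR adjusted p = 0.00110). Bsn had 1943, 2047, 1995 and 2123 CPM at 3 weeks, 2324, 2707, 2657 and 2109 CPM at 5 months, and 1835, 2175, 2340 and 2404 CPM at 19 months. The 5 months values of Bsn overlapped those at 3 weeks through replicate 4, and the rise passed the test (log2 0.29, SE 0.0990, edgeR adjusted p = 0.0327). That call was lost without 3 weeks replicate 2 (adjusted p = 0.0502) or 3 (0.0868), or without 5 months replicate 2 (0.117) or 3 (0.119). At 19 months neither gene passed the test against 3 weeks, with log2 fold changes of 0.12 for Bsn and 0.09 for Pclo (edgeR adjusted p = 0.454 and 0.597).

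Rims1 had 1135, 689, 790 and 717 CPM at 3 weeks, 832, 721, 701 and 652 CPM at 5 months, and 580, 591, 560 and 584 CPM at 19 months. All 19 months libraries lay below all libraries of both younger groups. Against 3 weeks, Rims1 at 19 months fell by 0.52 on the log2 scale (SE 0.118, edgeR adjusted p = 0.00235). Replicate 1 of 3 weeks SYN was far above its group, and without it the difference was -0.32 and was still called. At 5 months against 3 weeks the difference of -0.18 did not pass the test (edgeR adjusted p = 0.285).

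Rims2 had 284, 179, 192 and 180 CPM at 3 weeks, 272, 247, 258 and 226 CPM at 5 months, and 241, 236, 244 and 243 CPM at 19 months. Replicate 1 of 3 weeks was again the highest of its group, and the other 3 lay below every library of the older groups. With all libraries, Rims2 did not pass the test at 5 months against 3 weeks (log2 0.28, SE 0.112, edgeR adjusted p = 0.0683) or at 19 months against 3 weeks (log2 0.21, SE 0.112, edgeR adjusted p = 0.195). With no filter on low counts, Rims2 was called higher at 5 months (log2 0.26, edgeR adjusted p = 0.0371). Without that replicate, Rims2 was called higher in both, by 0.47 at 5 months (edgeR adjusted p = 4.08e-05) and 0.41 at 19 months (edgeR adjusted p = 0.000323). The same replicate gave the highest 3 weeks value of Ppfia3, 292 CPM beside 179, 202 and 228 CPM. At 5 months Ppfia3 had 271, 243, 281 and 241 CPM and at 19 months 181, 217, 234 and 222 CPM. Without 3 weeks replicate 1, Ppfia3 was called higher at 5 months than at 3 weeks (log2 0.37, edgeR adjusted p = 0.00310), and with it the log2 fold change was 0.22 and not called (edgeR adjusted p = 0.179).

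Unc13a had 332, 360, 340 and 345 CPM at 3 weeks, 289, 269, 301 and 270 CPM at 5 months, and 238, 246, 251 and 269 CPM at 19 months. Neither older group overlapped the 3 weeks libraries. Unc13a fell by 0.27 on the log2 scale at 5 months (SE 0.0814, edgeR adjusted p = 0.0155) and by 0.45 at 19 months (SE 0.0817, edgeR adjusted p = 0.000218), both against 3 weeks. These calls held in every alternative run with each library left out. Unc13b had 45.0, 34.7, 39.0 and 43.3 CPM at 3 weeks, 43.1, 42.6, 41.8 and 59.2 CPM at 5 months, and 39.2, 34.2, 35.5 and 36.3 CPM at 19 months, and passed the test in none of the age comparisons. All 19 months values of Unc13b were below those at 5 months (log2 -0.38, edgeR adjusted p = 0.133).

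Erc1 had 164, 119, 132 and 136 CPM at 3 weeks, 123, 112, 110 and 118 CPM at 5 months, and 107, 107, 107 and 113 CPM at 19 months. It fell by 0.34 on the log2 scale at 19 months against 3 weeks (SE 0.0933, edgeR adjusted p = 0.0103), or by 0.23 without 3 weeks replicate 1, which was also the highest for this gene. Erc2 had 222, 180, 195 and 199 CPM at 3 weeks, 204, 176, 202 and 177 CPM at 5 months, and 167, 171, 164 and 170 CPM at 19 months. All 19 months values of Erc2 lay below the younger ones, but the log2 difference of -0.24 from 3 weeks missed the threshold (SE 0.0871, edgeR adjusted p = 0.0566). It passed by DESeq2 (adjusted p = 0.0317). Rimbp2 stayed between 141 and 174 CPM in all 12 SYN libraries, with log2 fold changes of 0.03, -0.04 and -0.01 in the comparisons of 5 months with 3 weeks, 19 months with 5 months and 19 months with 3 weeks.

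Between 19 and 5 months, 0 of the 10 genes were called by edgeR, beside 0.130% of all genes called higher and 0.169% called lower. All 10 log2 fold changes were below 0, from -0.38 to -0.04, with a median of -0.18 beside 0.00 over all genes tested. At an unadjusted p under 0.05 there were 6 genes, all lower, beside 7.61% of all genes lower at that level. For 5 genes (Rims1, Unc13a, Unc13b, Erc2 and Ppfia3) the 19 months libraries lay wholly below the 5 months ones, beside 4.53% of all genes. For Unc13a the groups all but touched, with 269.3 CPM in 19 months replicate 4 and 269.4 CPM in 5 months replicate 2. Pclo had the smallest p (log2 -0.37, SE 0.0981, edgeR adjusted p = 0.0841) and was the 1 gene called by DESeq2, as lower (adjusted p = 0.00708), beside 2.04% of 9805 genes with an adjusted p. Without 3 weeks replicate 1, which belongs to neither group compared, Pclo and Rims1 were both called lower (edgeR adjusted p = 0.0206 for each).

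**Figure D2:**
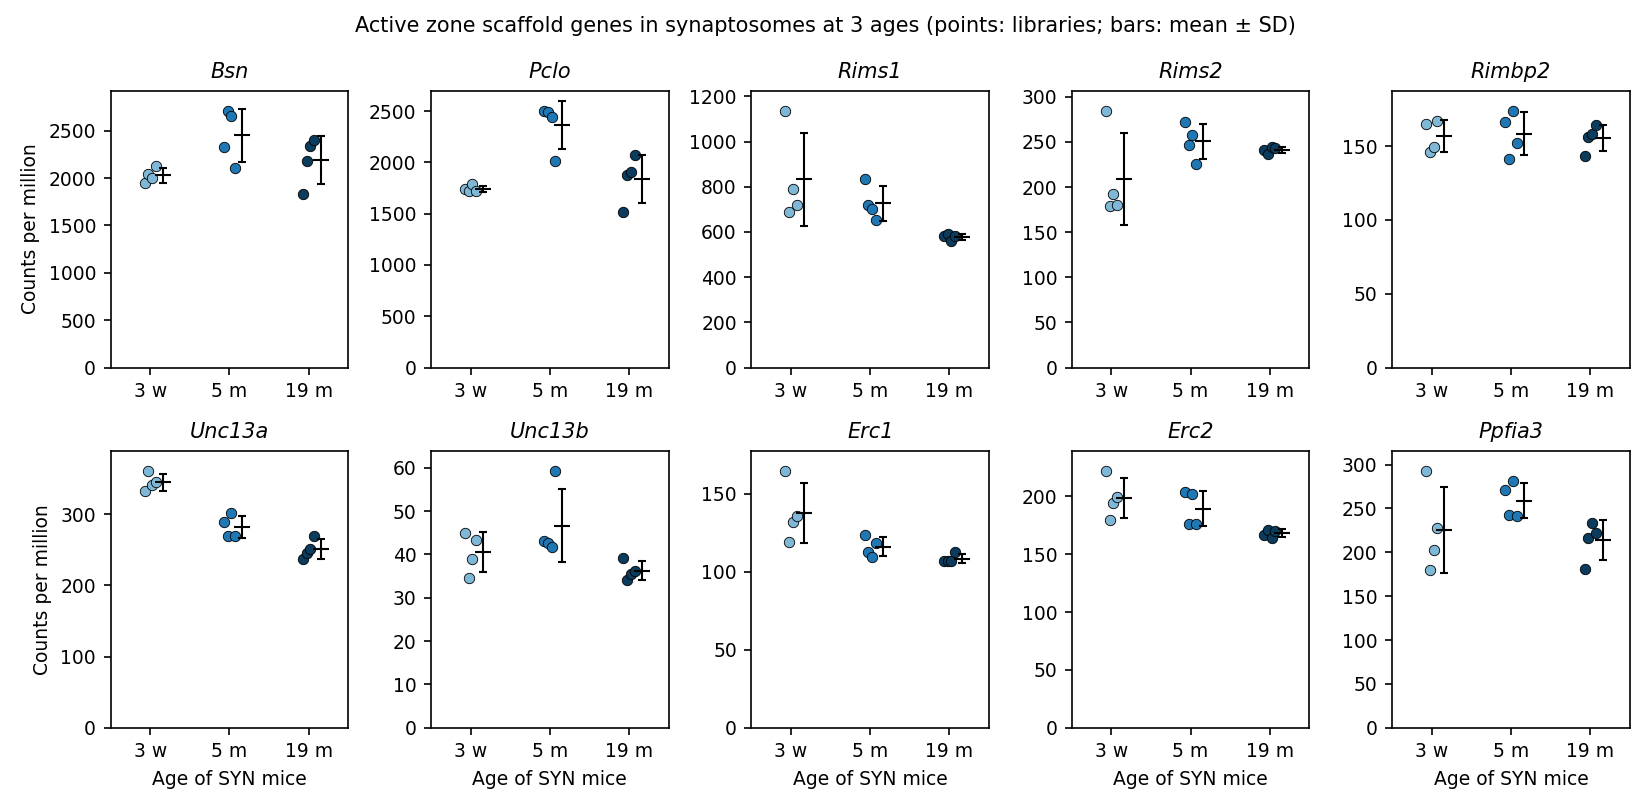
CPM of each gene in SYN libraries at 3 weeks, 5 months and 19 months, with 4 points per age and mean ± SD in black; each panel has its own axis from 0. Unc13a and Rims1 are lowest at 19 months, Pclo is highest at 5 months, and 3 weeks replicate 1 stands above its group for Rims1, Rims2 and Ppfia3.

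**Figure D3:**
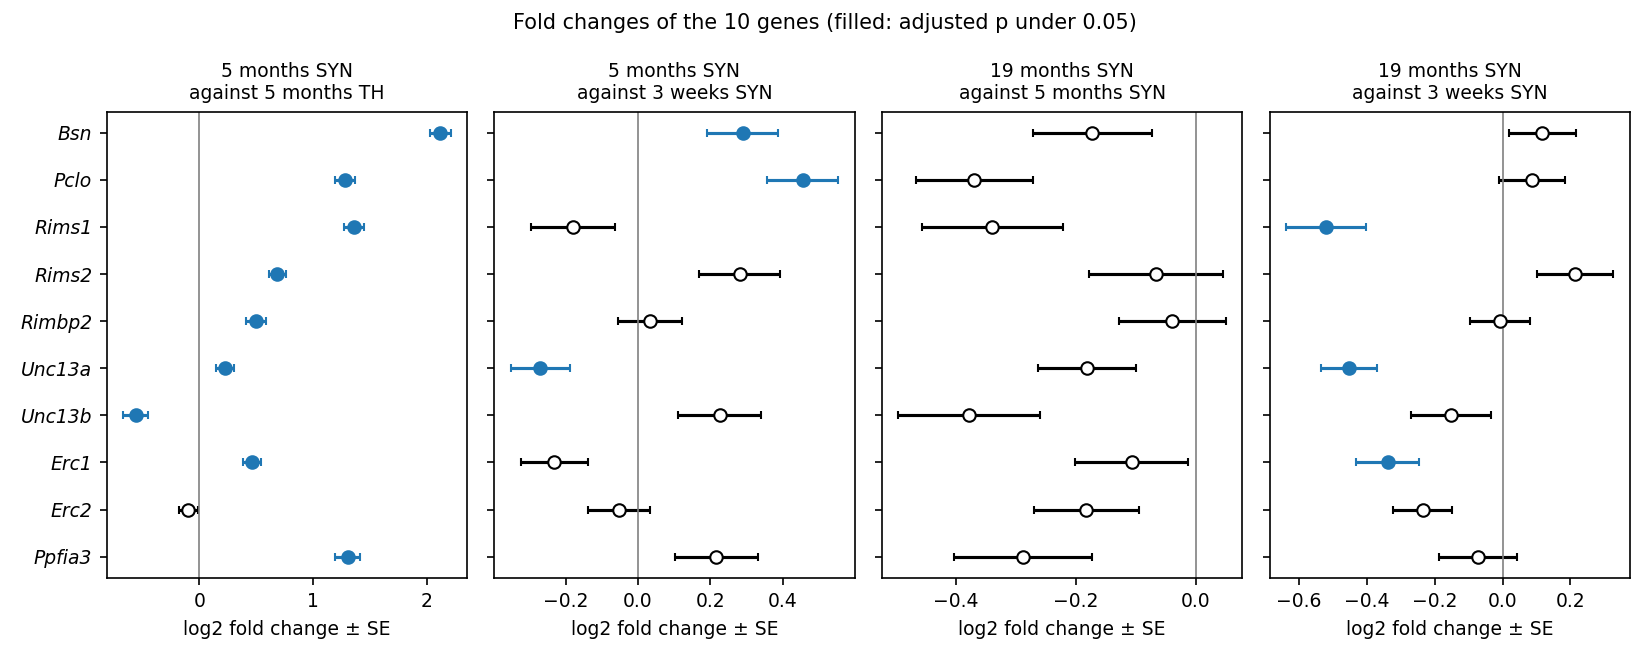
Log2 fold changes ± SE of the 10 genes in the 4 comparisons, on a separate axis for each, with filled blue points for an edgeR adjusted p under 0.05. SYN against TH has 9 filled points, the comparisons with 3 weeks have 3 each, and 19 months against 5 months has none, with all points left of 0.

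Ratios of related genes within a library need no scaling between libraries, so they were compared as counts of Bsn over Pclo, Rims1 over Rims2, Unc13a over Unc13b and Erc1 over Erc2. Each ratio was tested in 4 comparisons by an exact two-sided permutation test over 4 against 4 libraries, where the smallest p the 70 groupings allow is 0.0286, and the 16 p-values were adjusted together. In 11 of the 16 tests the groups did not overlap, which gave this smallest p and an adjusted p of 0.0416. This adjusted p depends on how many of the 16 tests reach the smallest p. Ratios of other gene pairs were not computed, so how often such pairs separate is not known here.

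The Rims1 to Rims2 ratio fell with each step in age. It was 3.99, 3.84, 4.12 and 3.99 at 3 weeks, 3.06, 2.92, 2.72 and 2.88 at 5 months, and 2.41, 2.5, 2.29 and 2.40 at 19 months in SYN. No age overlapped another, and replicate 1 of 3 weeks, which was high for both genes, lay among its group in their ratio. On the log2 scale the difference was -0.46 at 5 months against 3 weeks, -0.27 at 19 months against 5 months and -0.73 at 19 months against 3 weeks (exact permutation adjusted p = 0.0416 each, n = 4 per group). Without 3 weeks replicate 2 or 4 the exact permutation adjusted p of the comparisons with 3 weeks was 0.0508. In 5 months SYN the ratio was 0.67 log2 units above TH, where it was 2.10, 1.76, 1.74 and 1.70 (exact permutation adjusted p = 0.0416).

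The Bsn to Pclo ratio did not overlap between the fractions. It was 0.930, 1.09, 1.09 and 1.05 in 5 months SYN and 0.571, 0.574, 0.608 and 0.570 in TH, a difference of 0.84 log2 units (exact permutation adjusted p = 0.0416). Over age it was 1.12, 1.19, 1.12 and 1.23 at 3 weeks, the values just given at 5 months, and 1.21, 1.16, 1.23 and 1.16 at 19 months, so that the 5 months libraries lay below both other ages. The 5 months ratio differed from 3 weeks by -0.17, and the 19 months ratio from 5 months by 0.20 log2 units (exact permutation adjusted p = 0.0416 each), while the difference between 19 months and 3 weeks did not pass (0.03, exact permutation adjusted p = 0.457). The call at 5 months against 3 weeks was lost without 5 months replicate 1 (-0.12, exact permutation adjusted p = 0.105) and without 3 weeks replicate 2 (0.105) or 4 (0.114).

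The Unc13a to Unc13b ratio was 6.70, 6.32, 7.21 and 4.56 in 5 months SYN and 3.71, 3.97, 3.52 and 2.86 in TH, so that Unc13a outweighed Unc13b more in synaptosomes (0.81 log2 units, exact permutation adjusted p = 0.0416). The other ages had 7.38, 10.4, 8.72 and 7.98 at 3 weeks and 6.06, 7.19, 7.07 and 7.43 at 19 months, and the 19 months libraries overlapped both. The 5 months ratio lay below that at 3 weeks (log2 difference -0.48, exact permutation adjusted p = 0.0416). In this comparison the log2 difference was -0.34 without replicate 4 of 5 months, whose Unc13b level was high, and the call was lost there (exact permutation adjusted p = 0.0653) and without any 1 of the 3 weeks libraries (0.0762 to 0.0831). The call against TH was lost without any 1 of the TH libraries (0.0703). The Erc1 to Erc2 ratio was 0.606, 0.639, 0.543 and 0.671 in 5 months SYN and 0.418, 0.406, 0.393 and 0.447 in TH (0.56 log2 units, exact permutation adjusted p = 0.0416). It stayed between 0.543 and 0.742 over the ages, with a difference of -0.10 at 19 months against 3 weeks (exact permutation adjusted p = 0.0416) that was called in only 1 of the 8 cases with a library of these groups left out.

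**Figure D4:**
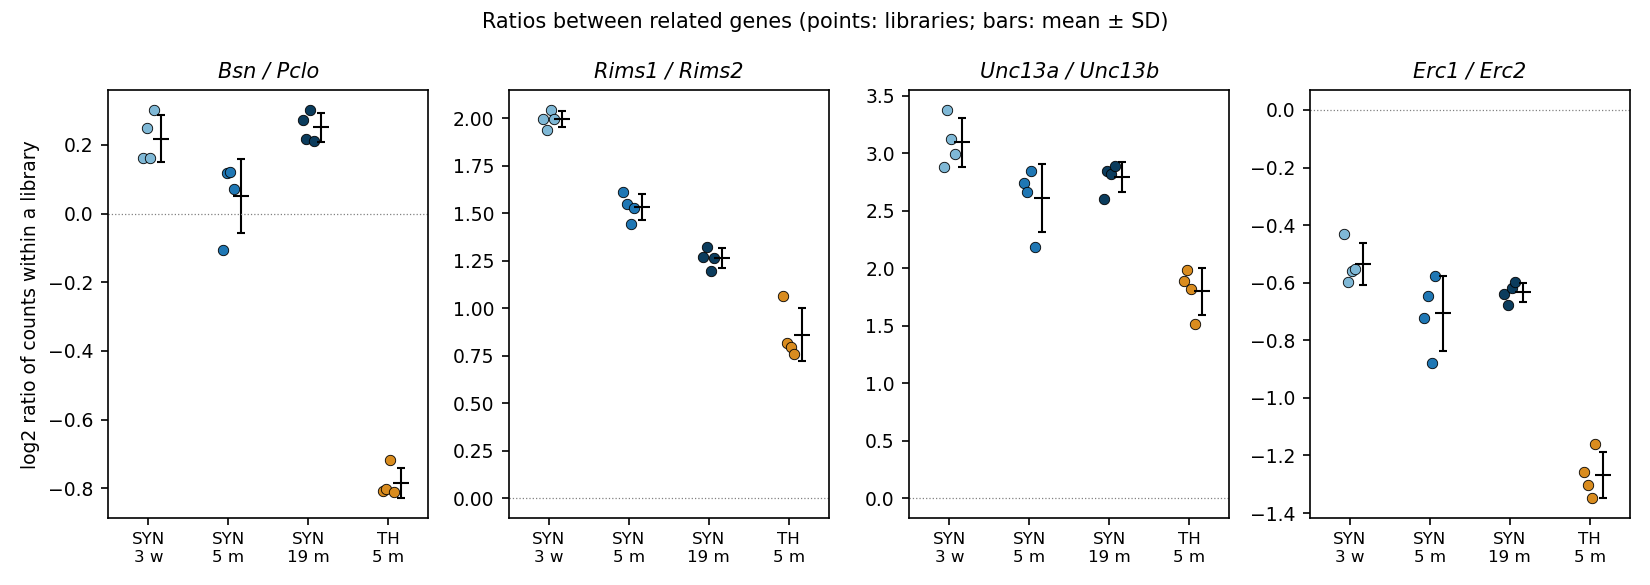
Log2 ratio of counts within each library for 4 pairs of related genes, in SYN at 3 weeks, 5 months and 19 months and in 5 months TH, with 4 points per group and mean ± SD. All 4 ratios are lowest in TH, and the Rims1 to Rims2 ratio steps down from 3 weeks to 19 months without overlap.

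Splicing was read from the authors' deposited LeafCutter tables, in which introns that share an end form a cluster. Each intron has a usage, its share of the reads of the cluster. A transcript that includes an alternative exon adds junction reads at both its ends, so a usage is not the share of transcripts. The scaffold genes had 30 clusters in 8 genes, and 28 of them were tested in each comparison. Unc13b and Ppfia3 have none in these tables. In the authors' deposited table for 5 months against 3 weeks, 6 clusters in 4 genes had an adjusted p under 0.05, beside 6.61% of all 4250 clusters tested. For 19 months against 3 weeks there were 5 clusters in 3 genes, beside 4.81% of 4176 clusters in the authors' deposited table. For 19 months against 5 months there were 0, beside 0.768% of 4037 clusters, and the lowest adjusted p of a scaffold cluster in that deposited table was 0.0985, for Rims2. Usages are the authors' group values with no spread between replicates, and the labels young, adult and old in the tables were taken as 3 weeks, 5 months and 19 months.

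Rims1 held the cluster with the smallest adjusted p, which the authors' deposited tables give as 4.47e-12 at 5 months against 3 weeks and 2.08e-13 at 19 months against 3 weeks. Usage of the skipping junction printed above was 37.2% at 5 months and 50.7% at 3 weeks, and 33.9% at 19 months, by the authors' deposited tables. In the same cluster, the authors' tables give more use at the older ages of an intron from chr1:22379541 to 22390536, with 21.6% at 5 months and 9.90% at 3 weeks, and 21.5% at 19 months. A second intron, chr1:22390624-22393918, had 22.7% at 5 months and 12.8% at 3 weeks, and 24.3% at 19 months in the authors' deposited tables. Together these junctions bound an interval of 87 bases, chr1:22390537-22390623, which is a multiple of 3 and is no exon of any of the 9 vM21 transcripts of Rims1. A further interval of 30 bases, chr1:22393919-22393948, lies between the second intron and an intron used at under 2% in the authors' deposited tables, and is not annotated either. There too, an annotated intron nearer the 3′ end, chr1:22296997-22346292, had 11.6% at 5 months and 19.2% at 3 weeks, and 12.2% at 19 months in the authors' deposited tables. Other Rims1 clusters were called at 5 months against 3 weeks with small shifts. In one, with an adjusted p of 0.0404 in the authors' deposited table, the usage that moved most was 9.49% at 5 months and 13.1% at 3 weeks. In the other, a block of 5 annotated exons between chr1:22398599 and 22425933, the adjusted p was 0.0201 in the authors' deposited table and an intron that skips 3 of them, chr1:22397564-22421740, had 10.5% at 5 months and 7.29% at 3 weeks.

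Rims2 was called in 3 clusters. The junction that skips the exon pair near the start had a usage of 33.7% at 5 months and 65.5% at 3 weeks (adjusted p = 0.00236 in the authors' deposited table), and 45.8% at 19 months (adjusted p = 0.0302 against 3 weeks in the authors' deposited table). The junction out of the pair, chr15:39275501-39292101, had 39.6% at 5 months and 21.7% at 3 weeks, and 36.9% at 19 months in the authors' tables. The junction that skips the exon of 78 bases had a usage of 75.6% at 19 months and 85.2% at 3 weeks (adjusted p = 0.0185 in the authors' deposited table). At 5 months its usage was 82.6% (adjusted p = 0.550 against 3 weeks in the authors' deposited table). The third cluster had an adjusted p of 0.0151 at 19 months against 3 weeks in the authors' deposited table. There, the intron chr15:39555098-39566942, which no vM21 transcript uses, had 39.4% at 19 months and 22% at 3 weeks. It follows an interval of 33 or 30 bases, chr15:39555065-39555097 or chr15:39555068-39555097, that is not an exon in vM21. The introns into that interval went in opposite directions, with 3.8% at 19 months and 8.56% at 3 weeks for the longer form and 4.72% at 19 months and 1.48% at 3 weeks for the shorter one in the authors' deposited table. Of the introns that skip it, chr15:39535982-39566942, used by 4 vM21 transcripts, had 17.2% at 19 months and 12.9% at 3 weeks in the authors' deposited table. The longer one, chr15:39535982-39674939, which no vM21 transcript uses, went the other way, with 21.0% at 19 months and 32.2% at 3 weeks there.

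The remaining called clusters lay in the priming and ELKS genes. The junction that skips the exon of 57 bases in Unc13a had a usage of 66.0% at 5 months and 87.1% at 3 weeks (adjusted p = 0.0239 in the authors' deposited table). At 19 months its usage was 73.3% (adjusted p = 0.147 against 3 weeks in the authors' deposited table). The inclusion junction chr8:71631047-71633438 of this exon had 22.3% at 5 months and 7.62% at 3 weeks in the authors' deposited table. The junction that skips the exon of 132 bases in Erc1 had a usage of 39.1% at 19 months and 64.4% at 3 weeks (adjusted p = 0.0224 in the authors' deposited table). At 5 months its usage was 56.3% (adjusted p = 0.322 against 3 weeks in the authors' deposited table). Both inclusion junctions of Erc1 had more use at 19 months, with 27.5% and 33.5%, than at 3 weeks, with 13.7% and 21.9%, in the authors' table. In Erc2 the skipping junction had 4.66% at 5 months and 38.7% at 3 weeks (adjusted p = 0.0141 in the authors' deposited table), and 14.5% at 19 months (adjusted p = 0.0766 against 3 weeks). In the authors' tables the intron ending at chr14:28383905 had 30% at 5 months and 6.57% at 3 weeks, and 39.0% at 19 months, and opens an interval of 138 bases, chr14:28383906-28384043, that is no exon of the 14 vM21 transcripts of Erc2. A start 82 bases upstream gives the same interval a length of 220 bases, and the intron to it had 55.0% at 5 months and 44.6% at 3 weeks in the authors' table, but 43.0% at 19 months and 44.6% at 3 weeks. The intron that leaves the interval, chr14:28384044-28475602, did not follow the introns that enter it, with 10.4% at 5 months and 10.2% at 3 weeks, and 3.60% at 19 months against 9.75% at 3 weeks in the authors' deposited tables.

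In the authors' deposited DIEGO tables, which compare each junction with the others of its gene, 20 of 320 scaffold junctions had a q-value under 0.05 at 5 months against 3 weeks, beside 1.48% of all 94845 junctions. The lowest scaffold q-value there was 0.0464, and all 20 shared it. At 19 months against 3 weeks there were 13 of 312, beside 0.690% of all 92746 junctions in the authors' deposited table, and at 19 months against 5 months 0 of 304, beside 0% of all 89750. The 20 junctions include the Rims1 intron out of the interval of 87 bases, the Erc2 introns that skip and enter its unannotated interval, and the inclusion junction chr8:71633496-71634516 of Unc13a. Others lie in Unc13b, which has no LeafCutter cluster, and the Rims2 junction lies outside the cluster that LeafCutter called at 5 months. At 19 months against 3 weeks, the 13 include the inclusion junctions of the Rims2 exon of 78 bases. They include none of the Rims1 cluster with the smallest LeafCutter adjusted p, and the Erc1 junction lies outside the cluster of its exon of 132 bases. No scaffold junction with a q-value under 0.05 carries the DIEGO tables' own mark of significance, and both tools used the same libraries.

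**Figure D5:**
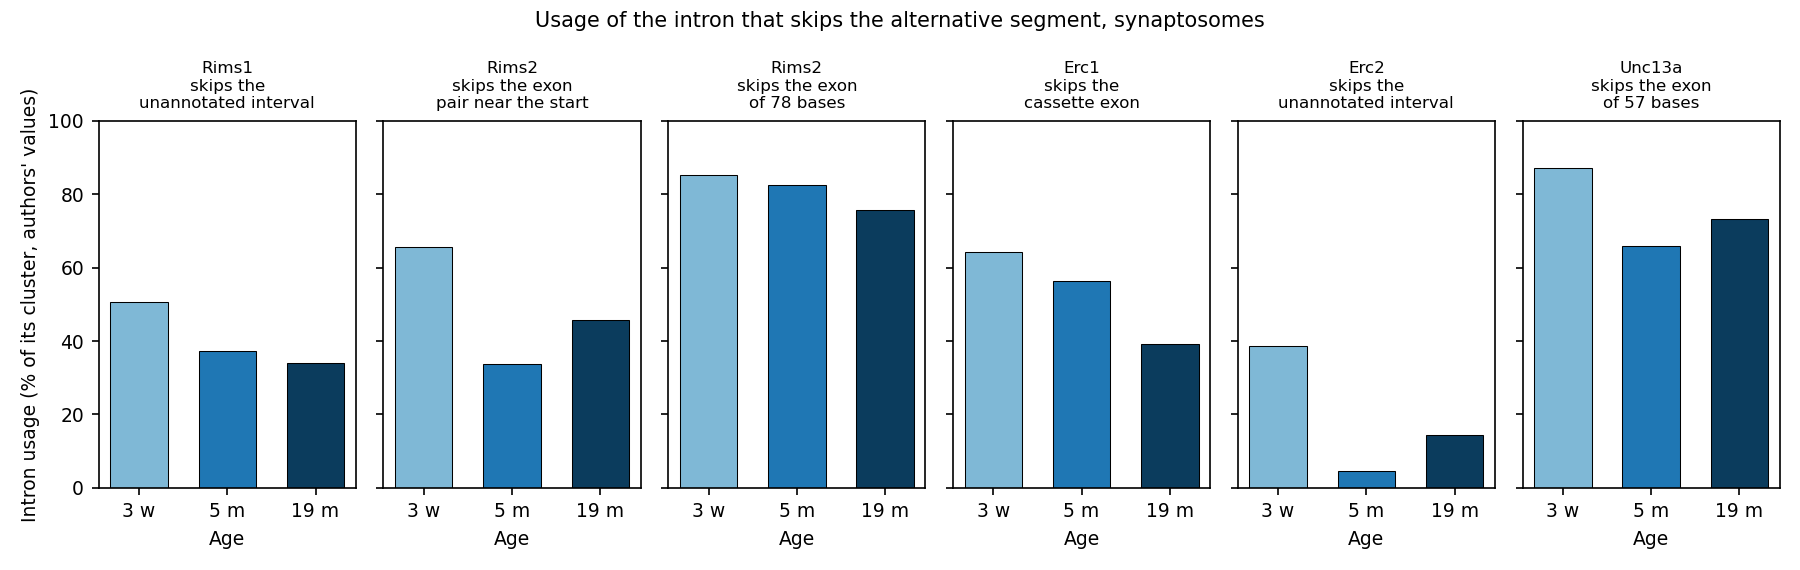
Usage of the intron that skips the alternative segment, in percent of its cluster by the authors' LeafCutter values, in SYN at 3 weeks, 5 months and 19 months; bars are group values with no spread. The 6 introns drawn had their highest usage at 3 weeks. The other called clusters are not drawn, and among them skipping introns of Rims1 (10.5% at 5 months, 7.29% at 3 weeks) and Rims2 (17.2% at 19 months, 12.9% at 3 weeks) had more use at the older age. A longer skipping intron of the same Rims2 cluster had less use at the older age (21.0% at 19 months, 32.2% at 3 weeks).

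Of the 39 further active zone genes in a list of partners, 22 were higher in 5 months SYN than in TH, 7 were lower and 10 did not pass the edgeR test, with a median log2 fold change of 0.28. Among all genes tested, 24.5% were called higher and 25.6% lower, with a median of -0.05. The highest were Brsk1, a kinase that phosphorylates active zone proteins, with 397 CPM in SYN against 91.0 in TH (log2 2.14, edgeR adjusted p = 3.97e-10), Git1, a scaffold that binds Piccolo and liprin, with 617 CPM in SYN against 157 in TH (1.98), Rims4 with 122 against 38.9 (1.66) and Unc13c with 199.9 against 64.2 (1.65). The lowest were Stxbp5l, a tomosyn, with 55.8 CPM in SYN against 94.7 in TH (-0.75, edgeR adjusted p = 3.55e-06), Git2 (-0.64), the priming factor Cadps (-0.39) and the calcium channel subunit Cacnb4 (-0.38). Of the other relatives of the scaffold genes, Rims3 (0.73), Tspoap1 (0.28), which encodes the other RIM-binding protein and is listed as Bzrap1 in the counts, and Ppfia4 (0.43) were also called higher. Ppfia1 (0.10) and Ppfia2 (-0.15) did not pass the edgeR test (adjusted p = 0.364 and 0.258).

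Over age, 4 partners rose and 5 fell at 5 months against 3 weeks, and 30 were not called by edgeR. Of all genes tested, 13.3% were called higher and 11.3% lower there. Rims3, a short RIM form that lacks the Rab3-binding part, had 112 CPM at 5 months against 50.9 at 3 weeks (log2 1.15, edgeR adjusted p = 1.31e-09). Git1 had 617 CPM at 5 months against 299 at 3 weeks (1.06, edgeR adjusted p = 1.13e-08). Brsk1 had 397 CPM at 5 months against 274 at 3 weeks (0.55), and the vesicle GTPase Rab3a, to which RIM binds, had 111 CPM at 5 months against 172 at 3 weeks (-0.62, edgeR adjusted p = 5.66e-06). At 19 months against 3 weeks 4 partners rose and 10 fell, beside 10.0% of all genes called higher and 9.44% called lower. Rims3 (1.15), Git1 (0.99), Rab3a (-0.68) and Apba2, a Munc18-binding adaptor (-0.49), had the smallest adjusted p there. At 19 months against 5 months 0 of 39 were called by edgeR, with a median log2 fold change of -0.07, beside 0.130% of all genes called higher and 0.169% lower. An unadjusted edgeR p under 0.05 was reached by 7 partners, all lower at 19 months, beside 7.61% of all genes lower at that level. DESeq2 called 1 partner, also lower, beside 2.04% of 9805 genes. Rims4, Unc13c, Tspoap1, Ppfia1, Ppfia2 and Ppfia4 were called in no age comparison, so Rims3 was the only relative listed here that was.

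Genes with the most similar profile over the 16 libraries were sought among 5387 genes that averaged 20 CPM or more, by the root mean square difference of centred log2 CPM. Nearest to Bsn were Map3k10 (0.0912), coding for a neuronal kinase, Shank2 (0.0968), a postsynaptic scaffold, and Adgrl1 (0.114), a latrophilin. Nearest to Rims1 were Kif5c (0.108), a kinesin heavy chain, Camk2n1 (0.122), an inhibitor of CaMKII, and Prex2 (0.140). Among the scaffolds themselves the closest pair was Rimbp2 and Erc1 (0.155) and the most distant was Bsn and Unc13b (1.21). These distances are a description over libraries that include both fractions.

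The genes lie on 9 chromosomes of GRCm38 by GENCODE vM21. Bsn is at chr9:108096022-108190384, Pclo at chr5:14514918-14863459, Rims1 at chr1:22286251-22805994, Rims2 at chr15:39198261-39684372 and Rimbp2 at chr5:128757791-128953486. Unc13a is at chr8:71624417-71671757, Unc13b at chr4:43058953-43264871, Erc1 at chr6:119570796-119848167, Erc2 at chr14:27622428-28478537 and Ppfia3 at chr7:45339122-45367019. Exon bases shared with a gene on the opposite strand number 1919 in Erc1 (Gm44317), 925 in Pclo (Gm26918 and Gm26954), 495 in Unc13a (Colgalt1) and at most 112 in any other. The strand setting of the counting is not given in the sources used here, so reads from such partners may be included.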

How the data were processed

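The submitters' processing notes name bcl2fastq (2.20.0.422), cutadapt (1.18), Trimmomatic (0.38), featureCounts in Subread, and GRCm38.p6. Which aligner, annotation release and strand setting were used is not given in the sources used here. The authors' deposited table holds whole-number counts and a gene length for 48709 genes and 16 libraries, with 0 columns of other samples. Their deposited splicing tables hold LeafCutter adjusted p-values, the usage of each intron as a fraction (printed as percent) and DIEGO q-values, per the file headers.

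Counts were filtered with filterByExpr and TMM-scaled, then entered edgeR (4.0.16, R 4.3.3) quasi-likelihood F tests over all genes, with 8 libraries for SYN against TH and 12 for the ages. A call needed a Benjamini-Hochberg adjusted p under 0.05. CPM in the text use TMM over all 16 libraries, and fold changes come from the fits. The procedure was also tested on simulated data. The p-values rest on the spread between libraries labelled as biological replicates. Permutation tests ran in Python 3.11.15.

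The members and lists were chosen with earlier results of these data known. Named are the 10 scaffolds and their relatives, the 4 highest and 4 lowest called partners in SYN against TH, the 4 partners with the smallest adjusted p over age, called clusters, and the 3 nearest profiles to Bsn and Rims1. Tspoap1 was matched to Bzrap1 by gene ID. Alternatives were DESeq2 (1.42.0) size factors and Wald test, upper-quartile scaling, mitochondrial genes removed, no filter or 1 CPM in 4 libraries, all 16 or only 8 libraries, a replicate block, each library left out, a stricter splicing threshold and DIEGO. No 2 libraries of the same group were copies of each other.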

Additional observations from a re-analysis of the deposited data

Results flagged for a closer look

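Within groups of 4 libraries, 5 of 56 sets of values had a library whose gap to its nearest neighbour took up most of the range of the group, and chance flags about 1 in 20 such sets. Pclo in 5 months SYN replicate 4 had 2009 CPM, below the other 3 libraries at 2445 to 2500 CPM. Unc13b in the same library had 59.2 CPM, above the others at 41.8 to 43.1 CPM, and this library also had the most Malat1 of its group. Rims2 in 3 weeks SYN replicate 1 had 284 CPM, above the others at 179 to 192 CPM. Erc1 in 19 months SYN replicate 4 had 113 CPM, above the others at 107 CPM. The Bsn to Pclo ratio in 5 months TH replicate 3 was 0.608, above the others at 0.570 to 0.574.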

How the results depend on the processing

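Of the alternative values of single genes and ratios, 881 kept their direction and their side of the threshold, 45 lost a call, 23 gained one and 15 changed sign, none of them called before or after. Rimbp2 at 19 months against 3 weeks was 0.014 under upper-quartile scaling and 0.037 without both libraries that stand apart, and Ppfia3 was 0.005 without them. The other 12 came with 1 library left out, where log2 values ran from -0.262 to 0.009 for Rims1, -0.099 to 0.007 for Erc2 and -0.019 to 0.084 for Rimbp2 at 5 months against 3 weeks, -0.094 to 0.009 for Rimbp2 at 19 months against 5 months, and -0.038 to 0.035 for Rimbp2 and -0.163 to 0.086 for Ppfia3 at 19 months against 3 weeks. For SYN against TH, upper-quartile scaling called 2 scaffolds lower (Unc13b and Erc2) and moved the median of all genes to -0.19, and leaving out 1 library gave 7 to 8 higher. For 5 months against 3 weeks, the replicate block and the fit of all 16 libraries each called 2 lower, adding Erc1, and the block also called Rims2 higher (0.30, adjusted p = 0.0142). With 1 library left out there were 1 to 4 higher and 1 to 2 lower, and the 4 came without 3 weeks SYN replicate 1. For 19 months against 5 months, 2 were lower with no filter and with only the 8 libraries compared (Pclo and Rims1), 1 in the replicate block and by DESeq2 (Pclo), and 0 to 2 with 1 library left out. For 19 months against 3 weeks, leaving out 1 library gave 0 to 1 higher and 3 to 4 lower. Leaving out both libraries that stand apart by Malat1 or mitochondrial rRNA, chosen after seeing the data, left 2 higher and 1 lower, 0 called, and 3 lower in the age comparisons. The cause of these changes was not tested.

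Of the 11 ratio calls, 0 remained in the replicate block, where the sign-flip test of 4 pairs cannot go below 0.125, and 6 to 11 with 1 library left out. The 6 came without 3 weeks replicate 2 or 4. At an adjusted p under 0.01, LeafCutter called 2 genes at 5 months and 1 at 19 months, both against 3 weeks, and DIEGO called 5 genes at 19 months against 3 weeks. Replicate numbers are shared by all groups, and the count columns of 5 months SYN and TH also carry the same sample numbers. No label says what these mark. The deviations of same-numbered SYN and TH libraries had correlations of 0.0884, 0.0200, 0.0176 and 0.144, beside -0.0942 to 0.0755 for differently numbered ones. The same-numbered value was the highest for replicates 1 and 4 and was not for replicates 2 and 3. These values do not settle whether the libraries are paired, so the block was run only as an alternative. Whether the fractions came from the same animals is not known here.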
